A study of Mus musculus with 2 samples.

Results

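The Mir322-Mir503-Mir351 cluster is a group of 7 microRNA hairpin genes on the minus strand of the mouse X chromosome. Its members were taken by Ensembl identifier from the deposited gene tables, and all 7 (Mir322, Mir503, Mir351, Mir542, Mir450a-2, Mir450a-1 and Mir450b) were found among the 1973 listed microRNA genes. The data come from microRNA sequencing of whole hearts of B6NCrl mouse embryos at embryonic day 10.5, healthy and of mixed sex, with no treatment or mutation named. There is 1 group with 2 libraries, called biological replicates by the labels, each made from its own pool of hearts (69 embryos for replicate 1 and 51 for replicate 2). No condition, age or tissue can therefore be compared. The comparisons are between the genes of the cluster within a library, and between the libraries, and their spread takes in both the hearts pooled and the making of each library.

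A microRNA is cut from a hairpin precursor, and each hairpin can give a 5p and a 3p mature arm. Bases 2 to 8 of a mature arm, its seed, are the main determinant of which messenger RNAs it pairs with, so microRNAs with the same seed share many targets. miR-322 (the mouse counterpart of human miR-424) and miR-503 belong to the extended miR-15/16 group, which is known for lowering cyclins and other cell-cycle regulators, and both have been linked to cardiac progenitors and to early heart muscle differentiation. miR-351 carries the seed of the miR-125 family, the vertebrate relatives of the worm timing microRNA lin-4.

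The hairpins lie on chromosome X between 53047997 and 53054349 (mm10), a span of 6353 bp. In the direction of transcription the order is Mir322, Mir503, Mir351, Mir542, Mir450a-2, Mir450a-1 and Mir450b. Mir322 (ENSMUSG00000065418.1, 53054255 to 53054349) is followed after 200 bp by Mir503 (ENSMUSG00000076122.1, 53053984 to 53054054) and after a further 630 bp by Mir351 (ENSMUSG00000065503.1, 53053255 to 53053353). A gap of 3767 bp separates Mir351 from Mir542 (ENSMUSG00000076140.1, 53049403 to 53049487). The 3 Mir450 hairpins come last: Mir450a-2 (ENSMUSG00000076399.1, 53048299 to 53048367), Mir450a-1 (ENSMUSG00000065486.1, 53048154 to 53048244) and Mir450b (ENSMUSG00000076050.1, 53047997 to 53048078), with 54 and 75 bp between them. None of the 7 overlaps another gene of the GENCODE M21 annotation. The long noncoding gene Gm28730 lies on the same strand in the gap between Mir351 and Mir542, and the noncoding transcript gene C430049B03Rik lies upstream on the same strand and ends 697 bp before the 5′ end of Mir322.

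The mature arms are printed here because they show which members share a seed and which cannot be told apart by a short read. They are RefSeq sequences on GRCm38.p6, written 5′ to 3′ with the seed in capitals.
miR-322-5p: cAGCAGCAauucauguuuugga
miR-503-5p: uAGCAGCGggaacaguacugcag
miR-351-5p: uCCCUGAGgagcccuuugagccug
miR-542-3p: uGUGACAGauugauaacugaaa
miR-542-5p: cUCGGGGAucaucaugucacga
miR-450a-5p: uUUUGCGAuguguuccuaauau
miR-450b-5p: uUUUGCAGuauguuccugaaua
miR-450a-1-3p: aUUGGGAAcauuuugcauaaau
miR-450a-2-3p: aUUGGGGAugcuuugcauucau
miR-450b-3p: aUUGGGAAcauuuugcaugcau

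The seeds of miR-322-5p and miR-503-5p are identical at bases 2 to 7 and differ at the last base, A8G, written with the miR-322-5p base first and counted from 1 at the 5′ end of the mature arm. Over 22 compared positions those arms are identical at 11. Within the Mir450 genes, miR-450a-1-3p and miR-450b-3p have the same seed and differ only at A19G and A20C, so they are identical at 20 of 22 positions. The relatives outside the cluster with the same seeds are printed for comparison, the first 5 with the seed of miR-322-5p and the last 2 with that of miR-351-5p.
miR-15a-5p: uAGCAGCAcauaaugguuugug
miR-15b-5p: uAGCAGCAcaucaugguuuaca
miR-16-5p: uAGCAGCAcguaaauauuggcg
miR-195a-5p: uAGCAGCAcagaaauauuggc
miR-497a-5p: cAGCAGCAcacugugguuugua
miR-125a-5p: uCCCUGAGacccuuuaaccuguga
miR-125b-5p: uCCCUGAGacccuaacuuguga

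miR-322-5p and miR-16-5p are identical at 12 of 22 positions, miR-351-5p and miR-125b-5p at 10 of 22. The kinship of these microRNAs thus lies mainly in the seed, and the rest of each arm keeps a read of miR-322 or miR-351 distinct. Each arm of Mir322, Mir503, Mir351, Mir542 and Mir450b was found in 1 annotated hairpin only, out of 2202 searched. The arm miR-450a-5p was found in 2, because Mir450a-2 and Mir450a-1 encode the same 5p arm. The stretch of 25 bases that these hairpins share is in capitals.
Mir450a-2: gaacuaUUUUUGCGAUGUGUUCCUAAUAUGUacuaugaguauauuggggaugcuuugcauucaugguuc
Mir450a-1: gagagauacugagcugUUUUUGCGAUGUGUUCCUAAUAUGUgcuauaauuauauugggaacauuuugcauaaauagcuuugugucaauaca

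The deposited tables count reads that map to several places on a separate line, outside any gene. The counting settings are not stated. From this layout it is inferred that a read of miR-450a-5p, which fits both hairpins, is missing from both, and the counts of Mir450a-2 and Mir450a-1 are read here as lower limits. Every upper or lower limit given for genes that share bases rests on this inference. Mir450b and Mir450a-1 share at most 19 bases in a row, so their full-length 3p arms differ, though only near the 3′ end.

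The libraries held 4163656 and 4789068 reads on the strand of a listed gene (own-strand counts) in replicates 1 and 2. Levels are given as CPM, a gene's own-strand counts per 1000000 of this sum. The upper limit behind a count of 0 was set at 3 counts, equal to 0.721 CPM for replicate 1 and 0.626 CPM for replicate 2. The 95% intervals (exact, Clopper-Pearson) and this floor cover counting error only. Of the heart muscle microRNA genes, Mir208a had 12836 and 17434 CPM and Mir208b 21037 and 49967 CPM. Others had few assigned reads, with Mir1a-1 at 17 and 15 counts and Mir133a-1 at 3 and 15. Of the 1973 listed genes, 952 share at least 20 bases with another annotated hairpin. Under the inference above, reads that fit several hairpins are missing, so low counts here do not show that miR-1a or miR-133a was scarce.

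Mir322, which gives the miR-15/16-type microRNA of the cluster, had 205867 counts in replicate 1 and 299628 in replicate 2. That is 49444 and 62565 CPM, with a mean of 56004 ± 9278 CPM (SD, n = 2), and it ranked 4th and 3rd of the listed genes. It stood at 0.355 times the level of Mir335, the gene with the highest counts, in replicate 1 and at 0.383 times in replicate 2. Among assigned reads, Mir322 was therefore one of the most counted genes of the heart in each pool, and it was the highest gene of its cluster in both. Reads that mapped to several places, 23.3% of reads in replicate 1 and 23.5% in replicate 2, are outside these ranks.

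Mir351, the miR-125-type member, had 80547 and 182578 counts, or 19345 and 38124 CPM (28735 ± 13279, SD, n = 2). It ranked 10th in replicate 1 and 6th in replicate 2. Mir351 was below Mir322 in both libraries, and its values lay further apart than those of Mir322. The ratio of Mir322 to Mir351 was 2.56 in replicate 1 (95% interval 2.54 to 2.58) and 1.64 in replicate 2 (1.63 to 1.65). The intervals are well apart.

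Mir503, the other member of the miR-15/16 type, lies between Mir322 and Mir351 on the chromosome but was much lower than either. It had 2350 CPM in replicate 1 and 2678 CPM in replicate 2 (2514 ± 232, SD, n = 2). Mir322 exceeded Mir503 21-fold in replicate 1 and 23.4-fold in replicate 2, and Mir351 exceeded it 8.23-fold and 14.2-fold. Hairpins only 200 bp apart, Mir322 and Mir503, thus differed more than 20-fold in counts, in the same direction in both libraries.

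Mir542, whose 3p arm is known to target the survival gene Birc5 (survivin), had 1364 and 1783 CPM (1573 ± 296, SD, n = 2). Mir503 was 1.72 times as high in replicate 1 (1.67 to 1.78) and 1.5 times as high in replicate 2 (1.46 to 1.54). These are the closest levels of any neighbours in the order, and they were apart in both libraries.

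The Mir450 hairpins had the lowest counts of assigned reads. Mir450b had 537 and 689 CPM (613 ± 108, SD, n = 2), Mir450a-1 had 57.4 and 80.0 CPM (68.7 ± 16.0) and Mir450a-2 had 13.2 and 21.7 CPM (17.5 ± 6.02). The last rests on 55 and 104 counts. Mir450b exceeded Mir450a-1 9.35-fold in replicate 1 and 8.61-fold in replicate 2. If reads that fit both Mir450a hairpins are not counted, these ratios are upper limits of the difference and do not show that Mir450b was higher. Mir450a-1 exceeded Mir450a-2 4.35-fold (3.23 to 5.94) and 3.68-fold (2.96 to 4.62), which compares the reads that could be assigned to 1 of them.

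**Figure D1:**
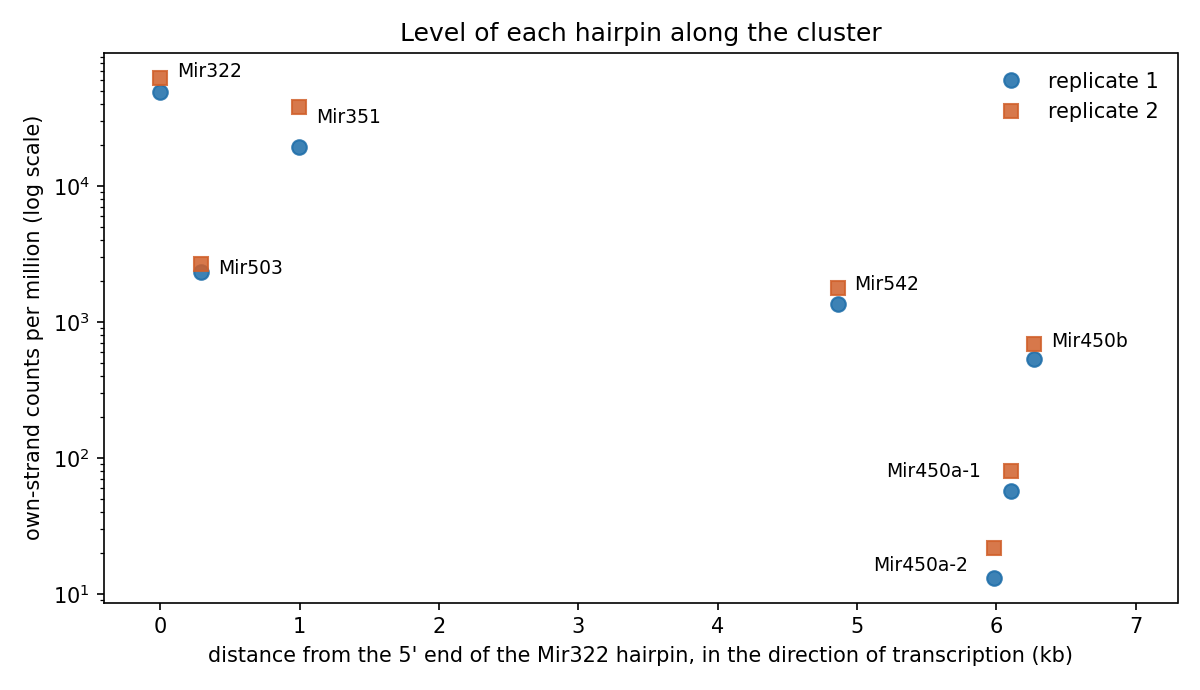
Own-strand CPM (log axis) of each of the 7 hairpins against the distance of its 5′ end from that of Mir322 in kb; circles are replicate 1 and squares replicate 2. Mir503 sits at 2350 and 2678 CPM between the far higher Mir322 and Mir351, and the 3 Mir450 hairpins near the 3′ end run from 13.2 to 689 CPM. The values of Mir450a-1 and Mir450a-2 are read as lower limits.

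The order of levels was Mir322, Mir351, Mir503, Mir542, Mir450b, Mir450a-1 and Mir450a-2 in both libraries. For each step of this order the lower value of one gene was above the higher value of the next, and the 95% interval of the ratio lay above 1 in each library. The places of Mir450a-1 and Mir450a-2 hold for assigned reads only. The order did not change when the mean level was divided by hairpin length (69 to 99 bases), although a read covers a mature arm and not the hairpin. It is not the order along the chromosome, where Mir503 comes before Mir351 and Mir450b comes last. From Mir322 to Mir450a-2 the counts fell 3743-fold in replicate 1 and 2881-fold in replicate 2, read as upper limits because of the shared Mir450a arm.

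Counts per hairpin do not tell the 5p from the 3p arm, and they reflect arms kept after processing and captured by the library. A level here is therefore one of counted mature reads. Whether the hairpins were transcribed or cut at different rates was not measured.

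All 7 genes had 0 counts on the opposite strand in both libraries. For Mir322 this allows up to 0.00146% of its own-strand counts in replicate 1 and 0.00100% in replicate 2. The same was true of 136 of the 153 listed genes with at least 1000 own-strand counts in each library, so an empty opposite strand was usual for well counted genes.

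The 7 genes together held 7.31% of own-strand gene counts in replicate 1 (95% interval 7.29 to 7.34) and 10.6% in replicate 2 (10.57 to 10.62). Mir322 and Mir351 made up 94.1% of the cluster's counts in replicate 1 and 95% in replicate 2. The other 5 genes held only 0.432% and 0.525% of all own-strand gene counts. The 3 hairpins nearest the 5′ end (Mir322, Mir503 and Mir351) held 97.3% and 97.6% of the cluster, and the 4 beyond the wide gap 2.70% and 2.43%. All these are shares of assigned reads, and reads of miR-450a-5p are inferred to be missing. The cluster shares of Mir322, Mir351 and the 3 hairpins at the 5′ end are therefore upper limits. That of the 4 beyond the gap is a lower limit. How far the shares of all gene counts would move is not known.

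The make-up of the cluster, which needs no scaling between libraries, shifted from Mir322 to Mir351. Mir322 held 67.6% of the cluster's counts in replicate 1 (67.5 to 67.8) and 59.1% in replicate 2 (58.9 to 59.2). Mir351 held 26.5% (26.3 to 26.6) and 36.0% (35.9 to 36.1). Mir503 went from 3.21% to 2.53%, Mir542 from 1.87% to 1.68% and Mir450b from 0.734% to 0.650%, and their intervals did not overlap between the libraries. Shares within the cluster add up to a fixed total, so a gain of Mir351 lowers the others. With its ratio between libraries divided by that of Mir322, Mir542 stood at 1.03 and Mir450b at 1.01. Differences beyond counting error were common, as the comparison below called 61.1% of all tested genes in either direction. Of the Mir450a hairpins, Mir450a-1 held 0.0785% and 0.0755% and Mir450a-2 0.0181% and 0.0205%, and these intervals overlapped. Mir351 was the gene that gained clearly in share, by a factor of 1.36, while Mir503 had the lowest factor, 0.787.

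**Figure D2:**
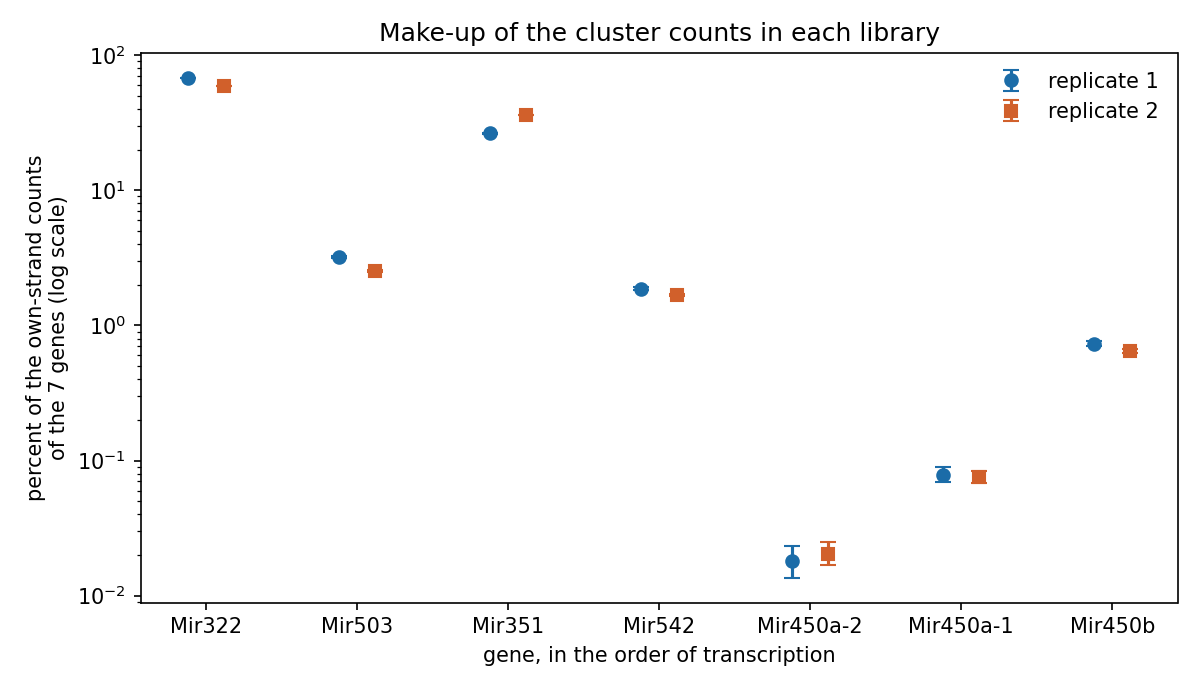
Share of the summed own-strand counts of the 7 genes held by each (log axis, percent) in replicate 1 (circles) and replicate 2 (squares), with exact 95% intervals for counting error. Mir322 goes from 67.6% to 59.1% and Mir351 from 26.5% to 36.0%, while the Mir450a intervals overlap.

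The seed families place Mir322 and Mir351 among their relatives. Of the listed genes, 9 others have an arm with the seed of miR-322-5p, and 5 of them had at least 100 CPM in both libraries. These were Mir15a with 3402 and 2649 CPM, Mir16-1 with 1822 and 1506, Mir15b with 1283 and 1178, Mir16-2 with 480 and 375, and Mir195a with 274 and 310. Mir195b, Mir6342, Mir6353 and Mir6419 had no counts. Mir497, the source of miR-497a, was not analysed here.

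Mir322 held 87.2% of the counts of this seed family in replicate 1 (87.1 to 87.3) and 91.2% in replicate 2 (91.1 to 91.3). It exceeded the highest relative, Mir15a, which lies with Mir16-1 in another cluster, in both libraries. Mir16-1 and Mir16-2 encode the same miR-16-5p and each shares at least 20 bases with another hairpin, so their counts are read as lower limits and the share of Mir322 as an upper limit. Mir503, with a seed 1 base apart, is not in these sums.

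For Mir351, 5 other listed genes share the seed, and 3 had at least 100 CPM in both libraries. Mir125a had 3845 and 3565 CPM, Mir125b-1 had 634 and 322, and Mir125b-2 had 370 and 393. Mir6367 and Mir6394 had no counts. Mir351 held 80.0% of this family's counts in replicate 1 (79.7 to 80.2) and 89.9% in replicate 2 (89.8 to 90.0). Mir125b-1 and Mir125b-2 each share at least 20 bases with another hairpin, so this share too is read as an upper limit. No listed gene outside the cluster shares a seed with an arm of Mir503, and none with miR-542-3p or miR-450b-5p.

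**Figure D3:**
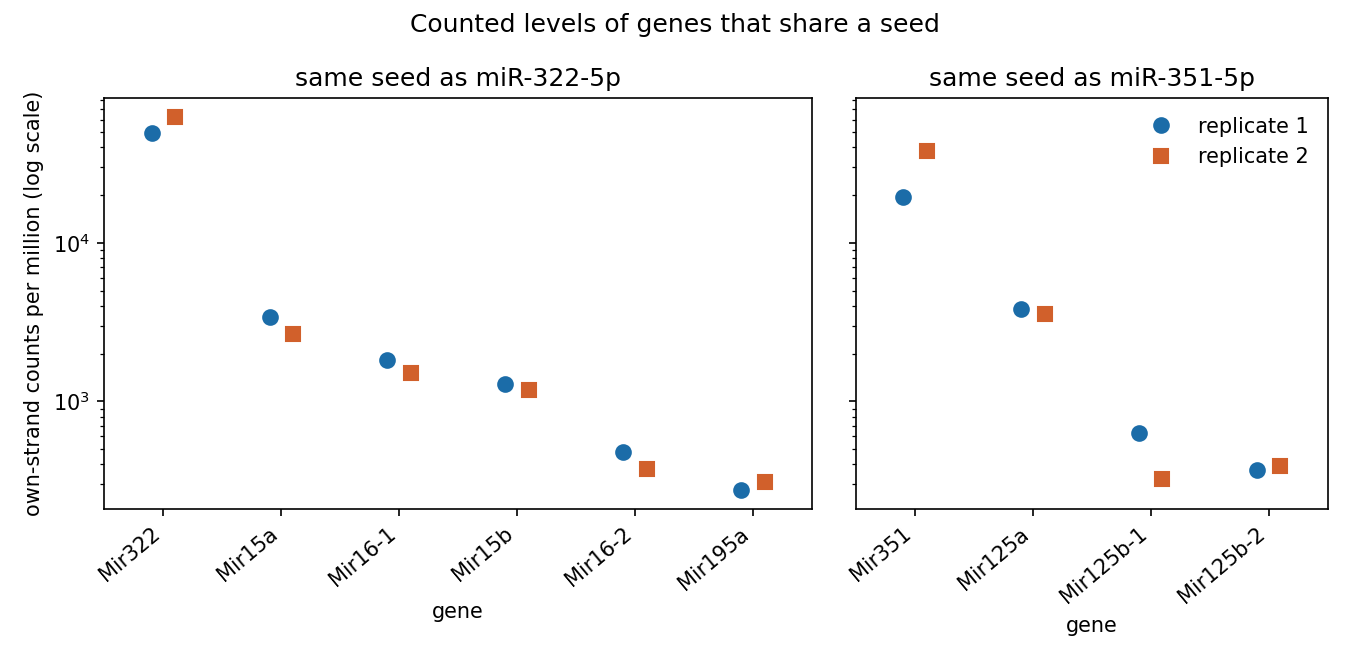
Own-strand CPM (log axis) of the genes with counts whose mature arm has the seed of miR-322-5p (left) or of miR-351-5p (right), in replicate 1 (circles) and replicate 2 (squares). Mir322 at 49444 and 62565 CPM and Mir351 at 19345 and 38124 CPM stand above every counted relative, of which Mir16-1, Mir16-2, Mir125b-1 and Mir125b-2 share at least 20 bases with another hairpin.

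The libraries were then compared gene by gene, to ask whether the cluster differed between the pools beyond counting error. The test was an exact two-sided conditional binomial test on the 424 genes that reached 10 counts in either library, with library sizes scaled by TMM (edgeR's trimmed mean of M values) and Benjamini-Hochberg adjustment over all of them. It compares these 2 libraries and not conditions. All 7 cluster genes passed the adjusted threshold of 0.05 and were higher in replicate 2, where 30% of all tested genes were called higher and 61.1% were called in either direction. The median log2 ratio (replicate 2 over replicate 1) was 0.65 for the 7 genes and -0.02 for all tested genes. The members come from 1 locus and are not independent of each other.

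Mir351 had the highest log2 ratio of the cluster, 1.24 (95% exact interval 1.23 to 1.25), or 2.36-fold, which was the 20th highest of the 424. Mir322 was higher by 0.60 (0.59 to 0.61), or 1.52-fold. Mir503 had the lowest ratio, 0.45 (0.41 to 0.49), or 1.37-fold. The 3 genes at the 5′ end of the cluster, within about 1 kb, thus held both its highest and its lowest ratio.

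Downstream of the wide gap, Mir542 had a log2 ratio of 0.65 (0.60 to 0.70) and Mir450b of 0.62 (0.55 to 0.70). Mir450a-1 had 0.74 (0.50 to 0.98; adjusted p = 8.68e-10, exact binomial test) and Mir450a-2 had 0.97 (0.50 to 1.48; adjusted p = 7.27e-05, exact binomial test), the widest interval because of its 55 and 104 counts. The intervals of these downstream genes all include the ratio of Mir322, while those of Mir351 and Mir503 do not. With each ratio divided by that of Mir322, Mir351 stood at 1.56, Mir450a-2 at 1.29, Mir450a-1 at 1.10, Mir542 at 1.03, Mir450b at 1.01 and Mir503 at 0.901.

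**Figure D4:**
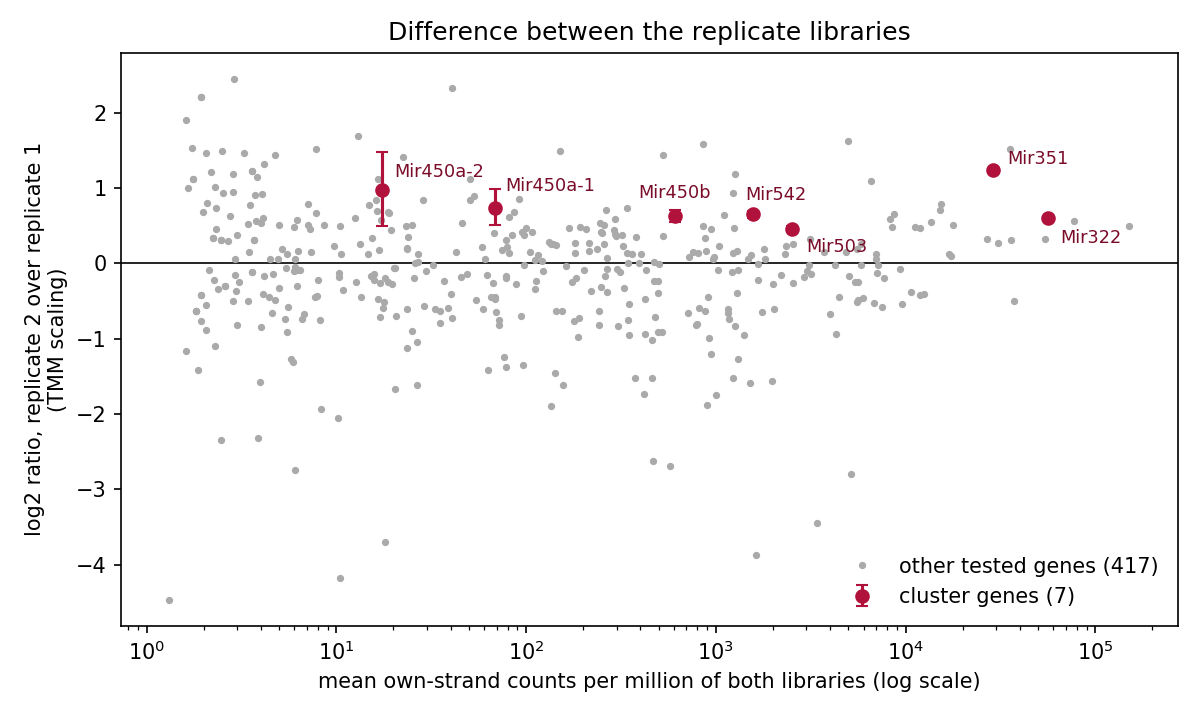
Log2 ratio of replicate 2 over replicate 1 (TMM scaling) against the mean own-strand CPM (log axis) for the 424 tested genes; grey points are other genes and red points the 7 cluster genes with exact 95% intervals for counting error. The cluster genes lie from 0.45 (Mir503) to 1.24 (Mir351), all above 0, over levels from 17.5 to 56004 CPM.

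These differences have to be read against the spread between the libraries at large. The median tested gene differed 1.38-fold in either direction, and 6 of the 7 cluster genes differed by more than that, Mir503 being the exception. A difference at least as large as that of Mir351, in either direction, was seen in 54 of the 424 genes (12.7%). With total counts as the scaling, all ratios fall by 0.26 on the log2 scale. All 7 genes were still called higher, where 15.6% of tested genes were, with Mir351 at 0.98, Mir322 at 0.34 and Mir503 at 0.19.

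The highest minus the lowest log2 ratio within the cluster was 0.79. Of 14 groups of at least 3 tested same-strand genes with neighbours at most 10 kb apart, the cluster had the 4th widest such range, against a median of 0.54. Its range of levels, 3207-fold from the highest to the lowest mean CPM, was the 2nd widest of the 14. Adding a gene to a group can only widen such a range, and the range of levels rests on Mir450a-2, read as a lower limit.

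Among the 75 other genes with at least 1000 CPM in both libraries, those with a log2 ratio nearest to that of Mir322 were Mir30d (0.59), Mir143 (0.57) and Mir30a (0.55). Those nearest to Mir351 were Mirlet7g (1.10), Mir208b (1.51) and Mirlet7i (1.62). Within 0.1 of Mir322 lay 5 of the 75 genes, and within 0.1 of Mir351 none. With 2 libraries such likeness is a single number per gene and says nothing of shared control.

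The seed relatives outside the cluster moved in both directions. Of the 5 tested genes of the Mir15-Mir16 list, Mir195a (0.44) and Mir15b (0.14) were called higher, Mir15a was lower (-0.10), and Mir16-1 (-0.01) and Mir16-2 (-0.10) did not pass. The median of this list was -0.01, and with total counts as the scaling 1 gene was higher and 4 lower, Mir15b turning to -0.12. Of all tested genes, 30% were called higher and 31.1% lower, or 15.6% and 46.2% with total counts. Among the miR-125 genes, Mir125a was higher at 0.15 and Mir125b-2 at 0.35, while Mir125b-1 was lower at -0.71. With total counts Mir125a was lower at -0.11, and Mir125b-2 did not pass at 0.09.

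The closest counterparts in genome structure are the Mir17-92 cluster, a polycistron known from proliferating cells, and its X-linked paralog, the Mir106a-363 cluster. The summed level of the Mir322 cluster was 0.963 times that of Mir17-92 in replicate 1 and 2.29 times in replicate 2. It exceeded the Mir106a-363 cluster 23.3-fold and 76.4-fold. With 2 libraries the smallest two-sided p of an exact sign-flip test is 0.5, so these ratios were not tested. All 6 genes of Mir17-92 were called lower in replicate 2 (median log2 ratio -0.44), as were 5 of 6 of Mir106a-363 (median -0.86), where 31.1% of all tested genes were called lower (46.2% with total counts as the scaling). Both clusters hold a copy of the genes for miR-19b and miR-92a, whose shared reads are not counted, so their sums are read as lower limits. The sum of the Mir322 cluster is a lower limit too, because of the shared Mir450a arm, so the ratios can err either way. They do not show which of the Mir322 and Mir17-92 clusters was higher in either library.

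Markers of several tissues also differed between the libraries. Sums and calls of these lists cover assigned reads only, and 952 of the 1973 listed genes share at least 20 bases with another hairpin. A sum that takes in such genes is read as a lower limit, and their calls rest on the reads that could be assigned. The 9 striated muscle genes summed to 34767 CPM in replicate 1 and 69071 in replicate 2, with 4 of 7 tested genes called higher and none lower, against 30% of all tested genes called higher and 31.1% called lower. Most of this sum came from Mir208a (12836 and 17434 CPM) and Mir208b (21037 and 49967 CPM). Mir499 was also called higher, as was Mir133a-1 on only 3 and 15 counts. Mir1a-1 (17 and 15 counts), Mir1b (19 and 26) and Mir206 (62 and 50) were not called. The 9 listed let-7 genes, which accumulate as cells differentiate, summed to 8132 and 16997 CPM, with 8 of 8 tested genes called higher (7 of 8 with total counts as the scaling, against 15.6% of all). In the other direction, the 6 Hox-cluster genes of the trunk summed to 17890 and 2051 CPM, with 5 of 5 tested genes called lower in replicate 2, against the same 31.1% of all tested genes. The 7 epithelial genes summed to 7068 and 2089 CPM, with 7 of 7 called lower, and the 5 listed liver and gut genes to 3440 and 504 CPM, with 3 called lower and 2 higher. None of these 5 lists had a gene at 0 counts in both libraries. The smooth muscle genes summed to 69745 and 86022 CPM, the endothelial genes to 53406 and 55563 CPM and the erythroid genes to 1160 and 1713 CPM. The leukocyte genes summed to 491 and 353 CPM and the neural genes to 387 and 328 CPM, with Mir142b, Mir9-2 and the 3 Mir124a genes at 0 counts in both. Reads that fit more than 1 Mir124a or Mir9 gene are inferred to be missing. Their 0 counts therefore do not show that neural RNA was absent, and the neural sum is read as a lower limit. The part of these tissues in the higher cluster counts of replicate 2 was not tested. In bulk tissue, fewer cells of a type and less RNA per cell cannot be told apart. The cluster is X-linked and the pools were of mixed sex, and the part of any difference in sex make-up was not tested.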

How the data were processed

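The deposited values are whole read counts per microRNA gene, 1 table per library, made by the authors from 1 alignment file each on mm10 with GENCODE M4, per the deposited notes. For the aligner and counter, nothing is given in the sources used here. Per library the tables give a count over both strands, on the own strand (used here) and on the opposite strand. Lines without a gene were not used: 26.3% and 25.5% of reads were unmapped, and 23.3% and 23.5% mapped to several places. A further 8.98% and 7.41% lay on the own strand of no listed gene, which takes in reads opposite to one. Symbols and positions came from GENCODE M21 on the same assembly (1894 of 1973 identifiers matched by stable ID; GENCODE writes Mir450a-1 and Mir450a-2 as Mir450-1 and Mir450-2), and mature arms from RefSeq (GRCm38.p6), matched by position to 916 listed genes. Shared stretches of 20 or more bases were sought on both strands of the annotated hairpins, and exact copies of an arm in those hairpins and GENCODE M21 transcripts, not in the whole genome.

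With 1 group, no fit of groups was possible. TMM factors over all listed genes came from edgeR 4.0.16, exact tests and intervals from scipy 1.17.1, and log2 ratios used a prior count of 0.5. The binomial test was run on simulated counts that held counting error only. That run cannot show how the test behaves with the spread between libraries seen here. The spread between libraries may be partly technical. Alternatives were other scalings (total counts, DESeq2 1.42.0 size factors, leaving out Mir335, the members or other genes sharing bases), both strands, other filters and a prior count of 5.

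The members, gene lists and tests were chosen with earlier results of these data known. The genes named are the 7 members, listed genes sharing a member's seed (with values from 100 CPM in both libraries), the 3 genes nearest in ratio to Mir322 and to Mir351, Mir335, the Mir17-92 and Mir106a-363 clusters, and marker lists of heart and other tissues, let-7 included, whichever way they moved.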

Additional observations from a re-analysis of the deposited data

How the results depend on the processing

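All 7 cluster genes stayed called higher in replicate 2 under each of the 8 alternative scalings, count columns and filters. The members, Mir450a-1 and Mir450a-2 included, stayed in where other genes sharing 20 or more bases were left out. In the 49 recalculated log2 ratios of the 7 genes (7 settings each, the prior count of 5 among them) none changed direction or lost its call. Total counts as the scaling gave the lowest ratio for each gene, from 0.19 for Mir503 to 0.98 for Mir351, and leaving the members out of the scaling factors the highest, up to 1.25 for Mir351. The number of all tested genes called ran from 199, without those genes, to 272, with counts over both strands, against 259. The share of the cluster, 8.95% on average, was 8.55% of counts over both strands, 10.6% without Mir335 and 10.9% without genes sharing bases. From single libraries it was 7.31% and 10.6%. With 18 shared bases as the limit in place of 20, 3 members in place of 2 had a near-identical stretch, Mir450b being the one added. The replicate comparison rests on 1 library a side, so no library could be left out of it. No paired analysis was possible because the study has a single group. For Mir450a-2, 55 and 104 counts limit the precision, and for Mir322 and Mir351 the spread between libraries is the limit and not depth.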
